A study of Homo sapiens with 12 samples.

Results

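The 9 genes described here are HRAS, MAP2K2, MKNK2, STK11, RICTOR, GNA11, GNA15, DAPK3 and GADD45B, which code for proteins that carry growth and stress signals inside the cell. They were chosen by name and by position, as signalling genes lying in the stretches of the genome where the names in the deposited tables match the reads, and are 9 of the 1352 entries in those stretches and of the 61498 entries in all. Total RNA was sequenced from HaCaT cells, a spontaneously immortalised human keratinocyte line, in 12 libraries. The 4 derivatives each carried a short hairpin RNA: shMLL1 (MLL1 knockdown; MLL1 is a histone H3 lysine 4 methyltransferase, gene KMT2A), shUTX (UTX knockdown; UTX is a histone H3 lysine 27 demethylase, gene KDM6A), shNRF2 (NRF2 knockdown; NRF2 is the transcription factor of the antioxidant response, gene NFE2L2) and shControl, whose genotype is labelled WT. Each derivative was exposed for 24 h to 100 µM H2O2, for 24 h to 25 µg/mL of CeO2 nanoparticles (cerium oxide particles), or left untreated, and each of the 12 combinations has 1 library. The labels do not say whether the libraries of a derivative came from separate cultures or how many clones or hairpins stand behind each derivative, so the tests measure the spread between these libraries only.

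HRAS is a small GTPase that passes signals of growth factor receptors to the RAF kinases, which activate MAP2K2 (MEK2) and through it the ERK kinases. MKNK2 (MNK2) is a kinase activated by ERK and p38 that phosphorylates the translation factor eIF4E, STK11 (LKB1) is a tumour suppressor kinase that activates AMPK when energy is low, and RICTOR is the defining subunit of mTOR complex 2, which phosphorylates AKT. GNA11 and GNA15 are alpha subunits of the Gq class, which couple receptors to phospholipase C beta, while DAPK3 (ZIP kinase) phosphorylates myosin light chains and GADD45B is a stress-induced activator of the p38 and JNK pathways.

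On GRCh38, HRAS (ENSG00000174775) lies on the minus strand at chr11:532242-537287 and RICTOR (ENSG00000164327) on the minus strand at chr5:38937919-39074408. The other 7 lie near the end of the short arm of chromosome 19: STK11 (ENSG00000118046) at chr19:1177558-1228435, MKNK2 (ENSG00000099875) at chr19:2037465-2051244, GADD45B (ENSG00000099860) at chr19:2476122-2478259, GNA11 (ENSG00000088256) at chr19:3094410-3124004, GNA15 (ENSG00000060558) at chr19:3136193-3163769, DAPK3 (ENSG00000167657) at chr19:3958453-3971123 and MAP2K2 (ENSG00000126934) at chr19:4090321-4124129. RICTOR stands apart in base composition, with 36.5% G and C in its longest transcript, against 59.6% (GADD45B) to 65.9% (DAPK3) in those of the others. It is also the longest, with 13550 exon bases, against 1854 in HRAS, the shortest.

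Promoter windows were read for 8 of the 9 genes from RefSeq (GRCh38.p14), as the 250 bases upstream of the RefSeq start, and 4 are printed here because the results below turn on these genes or, for GADD45B, because its window differs in make-up. Capitals mark matches on either strand. The GC box, read as GGGCGG, is a site for SP1-family factors. The CCAAT box, read by those letters, is a site for the factor NF-Y. The TATA box was read as TATAAA, the site of the TATA-binding protein. The E-box was read as CACGTG, a site for MYC and USF factors. Overlapping matches are each counted.
HRAS, chr11:535577-535826, minus strand: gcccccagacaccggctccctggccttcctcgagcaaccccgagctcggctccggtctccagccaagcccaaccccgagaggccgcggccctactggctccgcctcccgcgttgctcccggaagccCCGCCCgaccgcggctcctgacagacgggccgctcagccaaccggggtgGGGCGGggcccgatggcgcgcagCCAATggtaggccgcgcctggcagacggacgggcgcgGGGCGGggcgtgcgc
STK11, chr19:1205528-1205777, plus strand: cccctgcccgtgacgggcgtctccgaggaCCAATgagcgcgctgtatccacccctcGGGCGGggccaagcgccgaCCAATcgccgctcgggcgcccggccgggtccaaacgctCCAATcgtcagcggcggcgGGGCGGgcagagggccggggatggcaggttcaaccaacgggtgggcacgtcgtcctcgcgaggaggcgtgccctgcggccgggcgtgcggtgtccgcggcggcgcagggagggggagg
RICTOR, chr5:39074400-39074649, minus strand: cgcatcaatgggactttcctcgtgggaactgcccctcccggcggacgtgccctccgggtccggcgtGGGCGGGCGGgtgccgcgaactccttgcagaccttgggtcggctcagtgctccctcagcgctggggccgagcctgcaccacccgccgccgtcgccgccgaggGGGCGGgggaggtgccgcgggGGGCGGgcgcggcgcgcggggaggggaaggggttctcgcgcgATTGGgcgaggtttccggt
GADD45B, chr19:2475877-2476126, plus strand: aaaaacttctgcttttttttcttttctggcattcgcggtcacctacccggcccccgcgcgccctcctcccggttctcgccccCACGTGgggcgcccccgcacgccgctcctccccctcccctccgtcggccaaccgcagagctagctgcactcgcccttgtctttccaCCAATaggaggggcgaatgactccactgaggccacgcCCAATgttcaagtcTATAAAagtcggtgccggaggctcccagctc
The HRAS window held 77.2% G and C with 3 GC boxes and 1 CCAAT box, that of STK11 76% with 2 GC boxes and 3 CCAAT boxes, and that of RICTOR 76% with 4 GC boxes, 2 of them overlapping, and 1 CCAAT box. GADD45B differed from these, with 63.2% G and C, no GC box, 2 CCAAT boxes, 1 TATA box and 1 E-box. Over all 35116 RefSeq windows of this length the median was 58% G and C, 42.6% held a GC box, 32% a CCAAT box, 10.7% a TATA box and 6.34% an E-box. None of the windows of the 8 genes held the letters TGACGTCA, the cAMP response element, which 1.65% of all windows held. None held TGACNNNGC, the core of the antioxidant response element, which was found in 10.9%. RICTOR joins a GC-rich start to an AT-rich transcript.

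Total counts per library ran from 5388335 to 7670446. The names hold only in part of the tables, and only entries in 4 stretches, on chromosomes 5, 9, 11 and 19, are read by name. In these all 30 genes of a panel that every cell uses read at least 30 counts per 1000000 (CPM), which the rule that set the stretches requires. Elsewhere 141 of 758 did. Of the other coding genes, which the rule did not use, 66.6% averaged at least 1 CPM in the stretches and 33% elsewhere. Each of the 9 genes sits between panel genes with such counts, for example HRAS between PSMD13 (1280 CPM) and RPLP2 (1860 CPM). RICTOR sits between TARS1 (2050 CPM) and RPL37 (918 CPM), which lie 5468380 and 1750854 bases away. Of the keratinocyte markers 2 lie in the stretches, and both were high in every library, PKP3 (plakophilin 3, a desmosome protein) at 1620 to 2530 CPM and AQP3 (the epidermal water and glycerol channel) at 197 to 406 CPM, while the endothelial marker TEK had 0 to 1 counts. The other markers lie outside, where a count cannot be assigned to a name; KRT5, ITGA6, DSG3 and PERP are listed at 0 there. The targeted genes lie outside as well, so their entries cannot check a label. The KMT2A entry read 32.8 to 96.4 CPM in shMLL1 cells, 299 to 346 CPM in shUTX cells and 443 to 563 CPM in shNRF2 cells, against 472 to 508 CPM in shControl cells. The KDM6A entry (0 to 1 counts in shUTX cells, 5 to 6 in shControl cells) and the NFE2L2 entry (0 counts in shNRF2 cells, 1 to 16 in shControl cells) hold too few counts besides. The untreated shControl library differed from the exposed shControl libraries. Each library's deviation from the gene means was set against G and C content and exon length across 338 coding genes of the stretches. In the exposed shControl libraries the Spearman rhos were -0.0954 to 0.00208 with G and C content and 0.147 to 0.225 with length, against 0.31 and -0.36 in the untreated one. The shMLL1 libraries leaned the same way (0.223 to 0.272 with G and C content, -0.304 to -0.0911 with length), the shUTX libraries the other way (-0.397 to -0.253 and 0.168 to 0.212), and the shNRF2 libraries lay between (-0.208 to 0.0993 and 0.0524 to 0.138). These are descriptions across genes, which are not independent replicates. For the 9 genes, each comparison between derivatives in which leaving out the untreated shControl library changed a call is given below with and without it.

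All 9 genes passed the filter on low counts, with 285 counts (GADD45B, untreated shUTX) to 6328 counts (MAP2K2, untreated shControl) per library. CPM here are scaled by edgeR's TMM factors. Per kilobase of exon, HRAS stood highest at a mean of 169 CPM per kb over the 12 libraries, followed by MAP2K2 (140), GNA15 (121), MKNK2 (98.8), GNA11 (87.8), DAPK3 (55.6), STK11 (40.1), GADD45B (34.5) and RICTOR (17.7). The steadiest was MKNK2, whose highest library was 1.23 times its lowest, followed by GNA11 at 1.28 times. RICTOR spread most, at 2.2 times, followed by HRAS at 1.84 times. In a bulk sample a change in the mix of cells cannot be told apart from a change in RNA per cell.

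**Figure D1:**
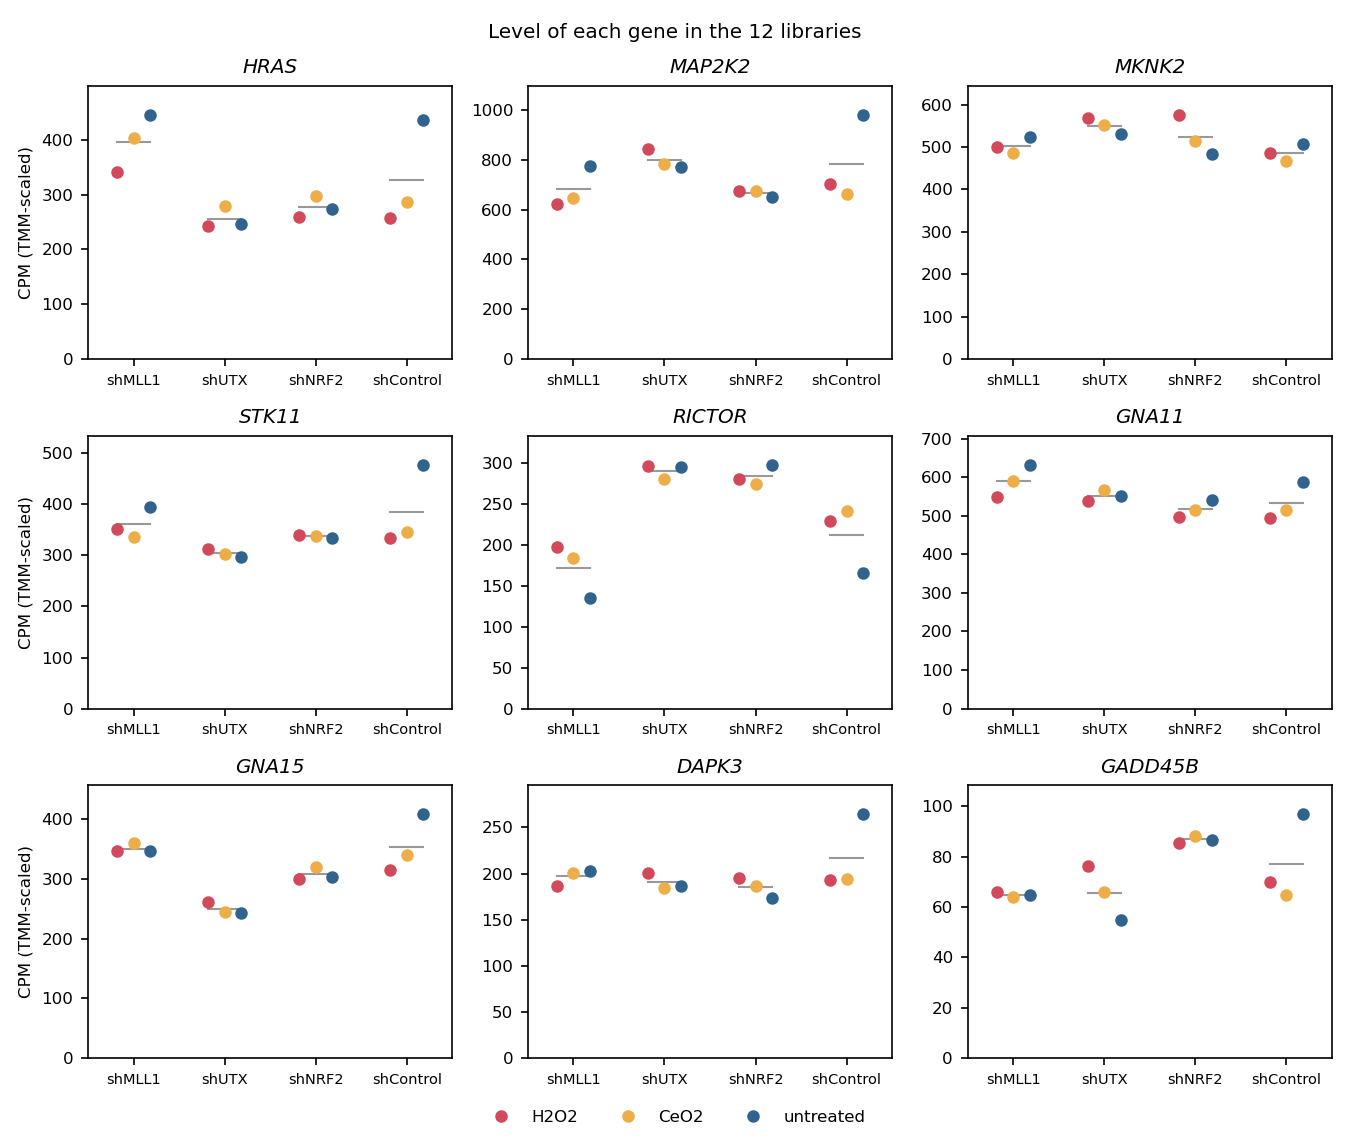
Level of each of the 9 genes (vertical axis, CPM scaled by TMM, starting at 0) in each derivative (horizontal axis). Each point is 1 library, coloured by treatment, and the grey line is the mean of the 3 libraries. RICTOR sits at 275 to 298 CPM in every shUTX and shNRF2 library and at 135 to 241 CPM in every shMLL1 and shControl library, and the untreated shControl point is the highest of all for MAP2K2, STK11, GNA15, DAPK3 and GADD45B.

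HRAS, the GTPase at the head of the pathway, was high in shMLL1 cells, at 341 CPM after H2O2, 404 CPM after CeO2 and 445 CPM untreated. The same 3 treatments gave 242, 280 and 247 CPM in shUTX cells, 259, 298 and 274 CPM in shNRF2 cells, and 257, 287 and 436 CPM in shControl cells. Every shMLL1 library was thus above every shUTX and shNRF2 library, and shControl cells covered both levels, with the untreated library high and the exposed ones low. HRAS was lower in shUTX cells than in shMLL1 cells by a log2 change of -0.62 ± 0.13 (SE; adjusted p = 0.0032, edgeR) and lower in shNRF2 cells than in shMLL1 cells by -0.51 ± 0.13 (adjusted p = 0.0167). The first call held in all 22 alternatives tried, at -0.68 to -0.40, and the second was lost, at -0.53 to -0.40, without any 1 of the 3 shMLL1 libraries or the untreated shNRF2 library. Against shControl cells HRAS passed no test, with log2 changes of 0.29 ± 0.13 in shMLL1, -0.32 ± 0.13 in shUTX and -0.22 ± 0.13 in shNRF2 cells. Without the untreated shControl library the difference from shControl cells was 0.51 (adjusted p = 7.91e-05) in shMLL1, -0.12 (adjusted p = 0.299) in shUTX and -0.01 (adjusted p = 0.968) in shNRF2 cells. The shMLL1 difference was also called with each library's trend against exon length (0.50, adjusted p = 0.000527) or against G and C content (0.39, adjusted p = 0.00673) removed, with no filter (0.28, adjusted p = 0.049) and with only the compared libraries (0.29, adjusted p = 0.0433). The shUTX difference was called with no filter (-0.34, adjusted p = 0.00389) and without the CeO2-exposed shControl library (-0.45, adjusted p = 0.0221), whereas with the length trend removed it changed sign, to 0.07 (adjusted p = 0.559).

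MAP2K2, the kinase below RAF, had the highest CPM of the 9 genes, at 624, 646 and 775 CPM in shMLL1 cells (H2O2, CeO2, untreated) and 844, 785 and 772 CPM in shUTX cells. It read 673, 673 and 650 CPM in shNRF2 cells and 703, 663 and 979 CPM in shControl cells. The untreated shControl library was the highest of the 12, all shUTX libraries were above all shNRF2 libraries, and the exposed shControl libraries lay among the rest. No difference between derivatives passed the test, the largest being -0.27 ± 0.11 for shNRF2 against shUTX cells (adjusted p = 0.0977). That difference was called in 6 of 22 alternatives, at -0.27 without the untreated shControl library (adjusted p = 0.00513) and up to -0.47 with the G and C trend removed (adjusted p = 0.000585). In shUTX against shMLL1 cells MAP2K2 differed by 0.24 ± 0.11 (adjusted p = 0.157), and by 0.23 without the untreated shControl library (adjusted p = 0.0161). With the G and C trend removed it was 0.32 higher in shUTX than in shControl cells (adjusted p = 0.00728), against 0.05 (adjusted p = 0.782) with the trend left in. MKNK2, the eIF4E kinase below ERK, ran from 468 CPM in CeO2-exposed shControl cells to 575 CPM in H2O2-exposed shNRF2 cells. All shUTX libraries lay above all shMLL1 and shControl libraries, by a small margin, and the shNRF2 libraries spanned both. Its means over the 3 treatments were 502 ± 19.3 CPM in shMLL1, 550 ± 19.6 CPM in shUTX, 524 ± 46.2 CPM in shNRF2 and 487 ± 19.8 CPM in shControl cells (SD over 3 treatments). The highest mean was 0.18 ± 0.08 above that of shControl cells on the log2 scale (adjusted p = 0.117), and the difference was called without the untreated shControl library (0.21, adjusted p = 0.0359) and with the length trend (0.26, adjusted p = 0.0129) or the G and C trend (0.45, adjusted p = 0.000278) removed. With the G and C trend removed MKNK2 was called higher in shUTX than in shMLL1 cells (0.31, adjusted p = 0.00644) and lower in shNRF2 than in shUTX cells (-0.29, adjusted p = 0.00798) as well.

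STK11, the AMPK-activating kinase, read 351, 336 and 394 CPM in shMLL1 cells (H2O2, CeO2, untreated) and 313, 302 and 297 CPM in shUTX cells. It read 340, 338 and 333 CPM in shNRF2 cells and 334, 345 and 477 CPM in shControl cells. The 3 shUTX libraries were the lowest of the 12, the shNRF2 libraries were nearly level, and the untreated shControl library was the highest. STK11 fell in shUTX cells relative to shControl cells by 0.33 ± 0.10 on the log2 scale (adjusted p = 0.0289). The call was lost without the untreated shControl library (-0.19, adjusted p = 0.0664), without the untreated shUTX library (-0.25, adjusted p = 0.16), without the CeO2-exposed shUTX library (-0.38, adjusted p = 0.0538), when the fit held only the compared libraries (-0.33, adjusted p = 0.151) and when the trend against G and C content was removed (-0.02, adjusted p = 0.867). Relative to shMLL1 cells the change in shUTX cells was -0.24 (adjusted p = 0.127), called without the untreated shControl library (-0.24, adjusted p = 0.00685) and with the length trend removed (-0.49, adjusted p = 0.00378). PRKAA1, the catalytic alpha 1 subunit of AMPK, which STK11 activates, moved the other way in shUTX cells, at 495, 524 and 559 CPM, against 338, 399 and 305 CPM in shControl cells (log2 change 0.60 ± 0.10, adjusted p = 0.000401; 0.49 without the untreated shControl library, adjusted p = 6.33e-05).

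RICTOR, the mTOR complex 2 subunit, separated the derivatives into a high and a low pair. It read 197, 184 and 135 CPM in shMLL1 cells (H2O2, CeO2, untreated), 296, 281 and 295 CPM in shUTX cells, 281, 275 and 298 CPM in shNRF2 cells, and 229, 241 and 166 CPM in shControl cells. All 6 shUTX and shNRF2 libraries lay above all 6 shMLL1 and shControl libraries, and within the low pair the untreated library was the lowest of each derivative. RICTOR rose in shUTX cells relative to shControl cells by 0.47 ± 0.12 on the log2 scale (1.38-fold, adjusted p = 0.0114), a call lost without the untreated shUTX library (0.35, adjusted p = 0.0762), in a fit of the compared libraries alone (0.46, adjusted p = 0.0522) and with the trend against G and C content removed (0.27, adjusted p = 0.0818). It held at 0.33 (adjusted p = 0.0157) without the untreated shControl library. In shNRF2 cells the rise of 0.44 ± 0.12 (adjusted p = 0.0497) sat at the threshold and was called in 6 of 22 alternatives. Leaving out any 1 library other than the CeO2-exposed shControl and the untreated shUTX library ended it, for example the untreated shNRF2 library (0.30, adjusted p = 0.261) and the untreated shControl library (0.30, adjusted p = 0.075). Relative to shMLL1 cells RICTOR was higher by 0.77 ± 0.12 in shUTX cells (adjusted p = 0.000487, called in 22 of 22 alternatives) and by 0.74 ± 0.12 in shNRF2 cells (adjusted p = 0.00103, called in 21 of 22). The exception was the removal of the length trend, after which the shNRF2 difference was 0.19 (adjusted p = 0.258) and the shUTX difference 0.30 (adjusted p = 0.049). In shMLL1 cells against shControl cells the log2 change was -0.30 ± 0.12 (adjusted p = 0.132), -0.44 (adjusted p = 0.0028) without the untreated shControl library, and 0.26 (adjusted p = 0.0996) with the length trend removed. The stretch of chromosome 5 that holds RICTOR had a median log2 change of -0.44 in shMLL1 against shControl cells over 137 entries. Of these, 8 were called higher and 68 lower. Over the same entries the median was 0.56 in shUTX against shMLL1 cells, with 75 called higher and 12 lower. In shNRF2 against shMLL1 cells it was 0.38, with 67 higher and 7 lower. The medians against shControl cells were 0.06 in shUTX and -0.04 in shNRF2 cells.

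GNA11 and GNA15, neighbours on chromosome 19 and members of the same subunit class, behaved differently. GNA11 read 495 (H2O2-exposed shControl) to 632 CPM (untreated shMLL1), with means of 590 ± 41.9 CPM in shMLL1, 551 ± 14.8 CPM in shUTX, 517 ± 22.2 CPM in shNRF2 and 532 ± 48.9 CPM in shControl cells (SD over 3 treatments) and passed no test between derivatives, though all shMLL1 libraries lay above all shNRF2 libraries. The difference between shNRF2 and shMLL1 cells, -0.19 (adjusted p = 0.118), was called without the untreated shControl library (-0.19, adjusted p = 0.0229) and with the length trend removed (-0.31, adjusted p = 0.00634). Against shControl cells GNA11 was called higher in shMLL1 cells with the length trend (0.27, adjusted p = 0.0139) or the G and C trend (0.25, adjusted p = 0.0348) removed, and in shUTX cells with the G and C trend removed (0.34, adjusted p = 0.00316). Removing the G and C trend also called it lower in shNRF2 than in shUTX cells (-0.31, adjusted p = 0.0061). GNA15 read 346, 360 and 346 CPM in shMLL1 cells (H2O2, CeO2, untreated), 261, 244 and 243 CPM in shUTX cells, 300, 320 and 304 CPM in shNRF2 cells, and 315, 340 and 408 CPM in shControl cells. The 3 shUTX libraries were the lowest of the 12 and the shNRF2 libraries came next, apart from the H2O2-exposed shControl library, which lay among them. GNA15 fell in shUTX cells relative to shControl cells by 0.50 ± 0.09 on the log2 scale (1.42-fold, adjusted p = 0.000958). The call held in all 22 alternatives, with a change of -0.39 without the untreated shControl library, -0.23 with the length trend removed and -0.22 with the trend against G and C content removed. Relative to shMLL1 cells the fall in shUTX cells was 0.49 ± 0.09 (adjusted p = 0.00153, called in 22 of 22). In shNRF2 cells GNA15 was 0.30 ± 0.09 higher than in shUTX cells (adjusted p = 0.0249), a call lost without the untreated or the CeO2-exposed shUTX library or without the H2O2- or CeO2-exposed shNRF2 library (0.25 to 0.31), and with the length trend (0.14) or the G and C trend (0.09) removed. GNA15 was also called lower in shNRF2 than in shMLL1 cells without the untreated shControl library (-0.19, adjusted p = 0.0308), against -0.19 (adjusted p = 0.214) with it. An antisense transcript, GNA15-DT, shares 160 exon bases with GNA15 but averaged 0.459 CPM.

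DAPK3, the myosin light chain kinase, varied little between derivatives apart from 1 library. It read 187, 201 and 203 CPM in shMLL1 cells (H2O2, CeO2, untreated), 201, 184 and 186 CPM in shUTX cells, 195, 187 and 174 CPM in shNRF2 cells, and 193, 194 and 264 CPM in shControl cells. The untreated shControl library alone stood above 203 CPM, and no difference between derivatives passed the test. With the G and C trend removed DAPK3 was called lower in shNRF2 than in shUTX cells (-0.28, adjusted p = 0.0157). GADD45B, the lowest in CPM, read 66.1, 63.9 and 64.8 CPM in shMLL1 cells and 76.5, 66.0 and 54.7 CPM in shUTX cells. It read 85.5, 88.4 and 86.7 CPM in shNRF2 cells and 70.1, 64.9 and 96.8 CPM in shControl cells. The shNRF2 libraries lay above all shMLL1 and shUTX libraries, with log2 differences of 0.42 ± 0.14 from shMLL1 cells (adjusted p = 0.0718) and 0.40 ± 0.14 from shUTX cells (adjusted p = 0.0548), which did not pass the test. Without the untreated shControl library these were 0.42 (adjusted p = 0.0014) and 0.41 (adjusted p = 0.00119), and GADD45B was then 0.39 higher in shNRF2 than in shControl cells (adjusted p = 0.0202), against 0.18 ± 0.14 (adjusted p = 0.517) with all libraries.

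Counted over the 9 genes, none passed the test in shMLL1 against shControl cells, where 12.2% of the 10800 entries tested and 28.2% of the 433 in the stretches did. In that comparison 2 of the 9, HRAS and RICTOR, had an unadjusted p under 0.05, beside 2798 of the 10800 entries. Neither DESeq2 nor limma-voom called any of the 9. In shUTX against shControl cells 3 passed, RICTOR higher and STK11 and GNA15 lower, beside 26.3% of all entries and 39.7% of those in the stretches. In shNRF2 against shControl cells RICTOR passed, higher, beside 5.33% and 9.47%; the 576 entries behind the first share were 257 to 829 with 1 library left out and 154 with only the compared libraries. Between the knockdowns, 3 passed for shUTX against shMLL1 (RICTOR higher, HRAS and GNA15 lower; 18% of all entries and 38.3% in the stretches), 2 for shNRF2 against shMLL1 (RICTOR higher, HRAS lower; 11.3% and 28.6%) and 1 for shNRF2 against shUTX (GNA15 higher; 23.4% and 38.6%). Read against the stretches, these shares of the 9 were near or below the background. The median log2 change of the 9 genes was -0.09 in shMLL1, -0.18 in shUTX and -0.18 in shNRF2 against shControl cells, where the median over all entries was 0.01, 0 and 0.01. Over the 158 tested entries of the chromosome 19 stretch, which holds 7 of the 9, the medians were -0.03, -0.18 and -0.09. These comparisons share the shControl libraries.

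**Figure D2:**
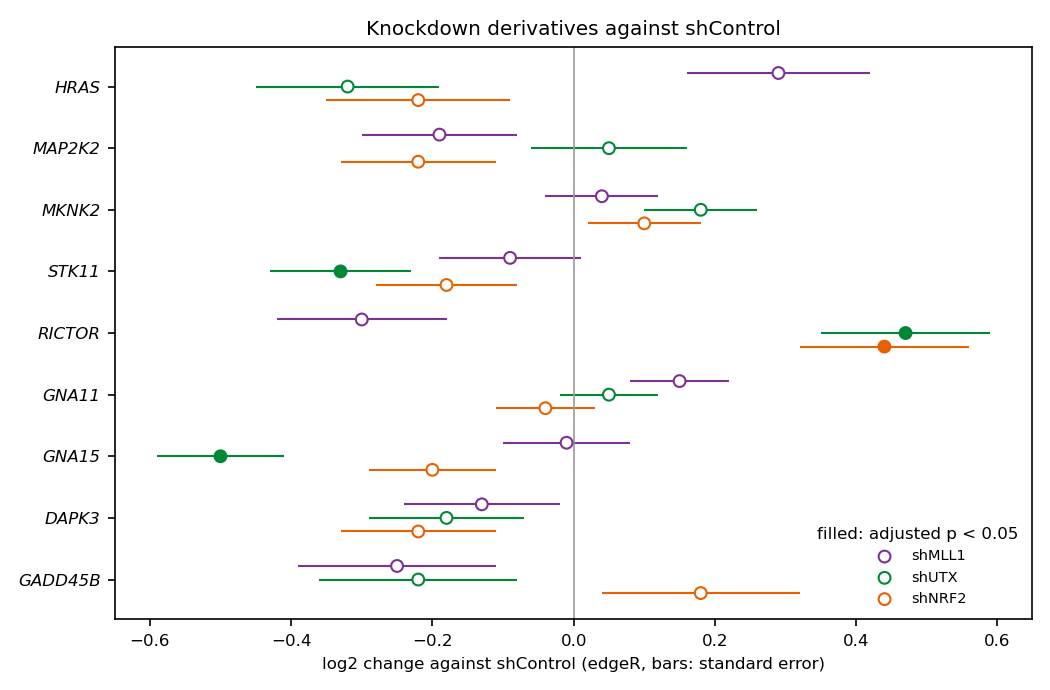
Log2 change of each gene against shControl (horizontal axis, bars are the standard error of the edgeR fit over all 12 libraries) for shMLL1, shUTX and shNRF2 cells, 1 row per gene. Filled points passed an adjusted p of 0.05: RICTOR at 0.47 in shUTX and 0.44 in shNRF2 cells, and GNA15 at -0.50 and STK11 at -0.33 in shUTX cells.

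The exposures were compared next, as H2O2 or CeO2 against untreated cells with the derivative as a block. None of the 9 genes passed the test for H2O2, where 0% of the 10800 entries did, nor for CeO2, where 0.0185% did, and 0% of the entries in the stretches passed in either. With no filter, 651 of 26202 entries were called for H2O2, HRAS among them (-0.32, adjusted p = 0.00481), and 543 for CeO2. For H2O2, 2102 entries had an unadjusted p under 0.05, among them 2 of the 9, HRAS (-0.33 ± 0.11, adjusted p = 0.159) and GNA11 (-0.15 ± 0.06, adjusted p = 0.21). For CeO2, 1888 entries and none of the 9 had one. DESeq2 called 74 entries for H2O2 and 14 for CeO2, limma-voom 0 for both, and neither tool called any of the 9. The standard errors of the 9 genes in these fits were 0.06 (GNA11) to 0.12 (GADD45B) on the log2 scale. With 1 library per combination, shifts well above these could go uncalled, as that of HRAS after H2O2 did.

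Within a derivative the exposed and untreated libraries can be set side by side, with exact 95% intervals that cover counting error only. In shMLL1 cells 5 of the 9 genes were below their untreated level and RICTOR above it by such intervals in each exposure, with HRAS at 0.766 times after H2O2 (interval 0.724 to 0.811) and 0.908 times after CeO2 (0.862 to 0.956) and RICTOR at 1.46 (1.33 to 1.59) and 1.36 (1.25 to 1.48). In shUTX cells none was below, and 3 after H2O2 and 2 after CeO2 were above. The highest of these was GADD45B, at 1.4 times (1.2 to 1.63) after H2O2 and 1.21 times (1.04 to 1.41) after CeO2. In shNRF2 cells 1 was below and 2 above after H2O2, and 2 were below and 2 above after CeO2, and RICTOR stood at 0.94 times (0.882 to 1) and 0.922 times (0.868 to 0.979). In shControl cells 7 of the 9 genes were below after H2O2 and 8 after CeO2, and RICTOR was above in both. HRAS stood at 0.589 times its untreated level after H2O2 (0.555 to 0.624) and 0.659 times after CeO2 (0.622 to 0.698) in these cells, and RICTOR at 1.38 times (1.28 to 1.49) and 1.46 times (1.35 to 1.57). Both ratios of a derivative are divided by the same untreated library, so they are not separate observations. The share of all entries outside such intervals is not given here, so these numbers do not set the 9 genes apart from other genes.

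**Figure D3:**
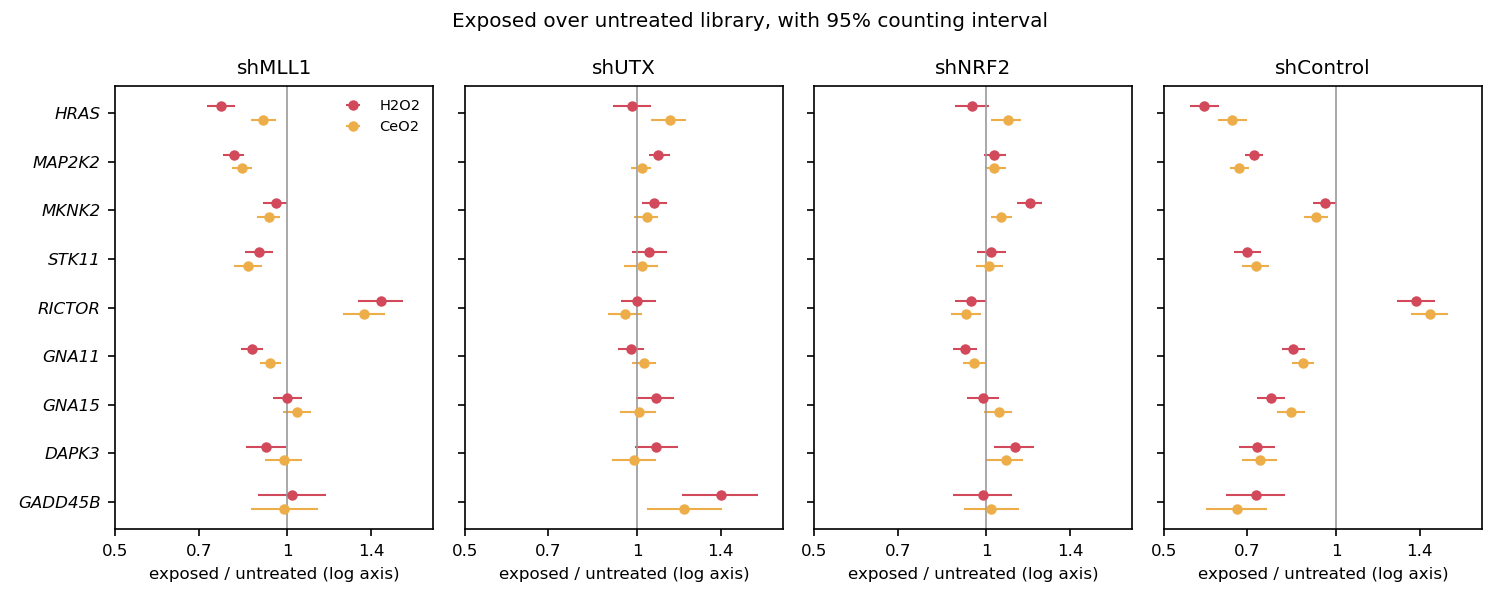
Ratio of the H2O2 or CeO2 library to the untreated library of the same derivative (horizontal log axis, 1 means no difference) for each gene, with exact 95% intervals for counting error. In shMLL1 cells RICTOR lies at 1.46 and 1.36, in shUTX and shNRF2 cells most intervals reach 1, and in shControl cells RICTOR lies at 1.38 and 1.46 and all other genes left of 1.

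A model with a separate exposure response for each knockdown, pooling H2O2 and CeO2, asks whether the exposed over untreated ratio differed from that of shControl cells. It leaves 3 residual degrees of freedom, and every such difference uses the untreated shControl library, without which it cannot be fitted. Each untreated library is fitted exactly, so the standard errors and p-values rest on differences among the exposed libraries alone. They hold no spread of the untreated libraries. In shUTX cells 6 of the 9 genes passed, beside 14.4% of all entries and 23.1% of those in the stretches. HRAS was higher by 0.76 ± 0.12 on the log2 scale (adjusted p = 0.000423), MAP2K2 by 0.60 ± 0.11 (adjusted p = 0.00178), STK11 by 0.54 ± 0.12 (adjusted p = 0.00463), DAPK3 by 0.50 ± 0.13 (adjusted p = 0.016) and GADD45B by 0.90 ± 0.17 (adjusted p = 0.00193), while RICTOR was lower, at -0.54 ± 0.13 (adjusted p = 0.00776). In shNRF2 cells, set against the same shControl libraries, 6 passed, beside 16.6% of all entries and 27.5% of those in the stretches. The differences were 0.70 for HRAS, 0.57 for MAP2K2, 0.52 for STK11, 0.59 for DAPK3, 0.53 for GADD45B and -0.61 for RICTOR, with adjusted p from 0.000526 (HRAS) to 0.0326 (GADD45B). Calls were lost for DAPK3 in shUTX cells without the H2O2-exposed shUTX library (0.43, adjusted p = 0.0767), for RICTOR in shUTX cells without the CeO2-exposed shUTX library (-0.49, adjusted p = 0.0544), and for GADD45B in shNRF2 cells without either exposed shMLL1 library (0.53, adjusted p = 0.0589) or the CeO2-exposed shNRF2 library (0.44, adjusted p = 0.125). Over all 17 alternatives of this model, DAPK3 was called in 13 and RICTOR in 14 in shUTX cells. GADD45B in shNRF2 cells was called in 10 of the 17. DESeq2 called 483 of all 10800 entries in shUTX and 542 in shNRF2 cells, against 1554 and 1794 with edgeR. In the stretches it called 59 and 64, against 100 and 119. In shMLL1 cells none passed, beside 0.648% of all entries and 1.62% of those in the stretches. The 70 entries behind the first share were 4 to 679 with 1 exposed library left out, and HRAS was called without the H2O2-exposed (0.45, adjusted p = 0.0137) or the CeO2-exposed shControl library (0.39, adjusted p = 0.046). There 5 of the 9 had an unadjusted p under 0.05, beside 1715 of the 10800 entries, and DESeq2 and limma-voom called none of the 9. The directions follow from the values above: the mean of the exposed libraries over the untreated one was 1.06 for HRAS in shUTX, 1.02 in shNRF2 and 0.837 in shMLL1 cells, against 0.624 in shControl cells, and for RICTOR 0.978, 0.931 and 1.41, against 1.42.

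The stretches around the genes were shifted as well in this model. The median difference from shControl cells was 0.52 in shUTX and 0.53 in shNRF2 cells over the 38 tested entries of the chromosome 11 stretch, and 0.35 and 0.37 over the 158 of chromosome 19, against 0.05 and 0.01 over the 137 of chromosome 5. HRAS at 0.76 and 0.70 stood above the median of its stretch by less than that median itself. The quartiles of chromosome 19 were 0.11 and 0.62 in shUTX and 0.12 and 0.65 in shNRF2 cells. Of the called genes there, MAP2K2, STK11 and DAPK3 lay between them in both, and GADD45B in shNRF2 cells only. HRAS lay above the upper quartile of its stretch (0.68 and 0.66) and RICTOR below the lower quartile of its own (-0.27 and -0.24) in shUTX and shNRF2 cells. The median over all entries was -0.02 in both. On chromosome 11, 18 of the 38 were called higher in shUTX and 19 in shNRF2 cells, and 0 lower in either. Of the 158 on chromosome 19, 46 were called higher and 1 lower in shUTX cells, and 49 and 2 in shNRF2 cells. Of the 137 on chromosome 5, 11 were called higher and 9 lower in shUTX cells, and 19 and 13 in shNRF2 cells. When the trend against G and C content was removed from each library, an alternative chosen after seeing the data, 3 of the 9 genes were called in shUTX cells (HRAS 0.39, GADD45B 0.60, RICTOR -0.46) and 1 in shNRF2 cells (RICTOR -0.50), and of the 433 entries in the stretches 52 and 70 were called, against 100 and 119 with the trend left in. With the trend against exon length removed, MAP2K2 (0.42) and STK11 (0.54) were called in shUTX cells, and MAP2K2 (0.39), STK11 (0.53) and RICTOR (-0.39) in shNRF2 cells. RICTOR in shNRF2 cells was the 1 difference called in all 17 alternatives of this model. Set against shMLL1 in place of shControl cells, also chosen after seeing the data, none of the 9 passed the test in shUTX (0.00926% of all entries) or shNRF2 cells (0.148%), and 0% of the entries in the stretches passed. There 4 of the 9 had an unadjusted p under 0.05 in each comparison, beside 924 of the 10800 entries in shUTX and 1029 in shNRF2 cells. RICTOR stood at -0.52 ± 0.13 (adjusted p = 0.19) and -0.59 ± 0.13 (adjusted p = 0.0671). RICTOR was called there without the H2O2-exposed or the CeO2-exposed shControl library, at -0.52 in shUTX (adjusted p = 0.0129 and 0.0131) and -0.59 in shNRF2 cells (adjusted p = 0.00274 and 0.00277), and in shNRF2 cells with no filter (-0.61, adjusted p = 0.0103). Beyond these alternatives, the part of the libraries' trends in the differences was not tested.

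**Figure D4:**
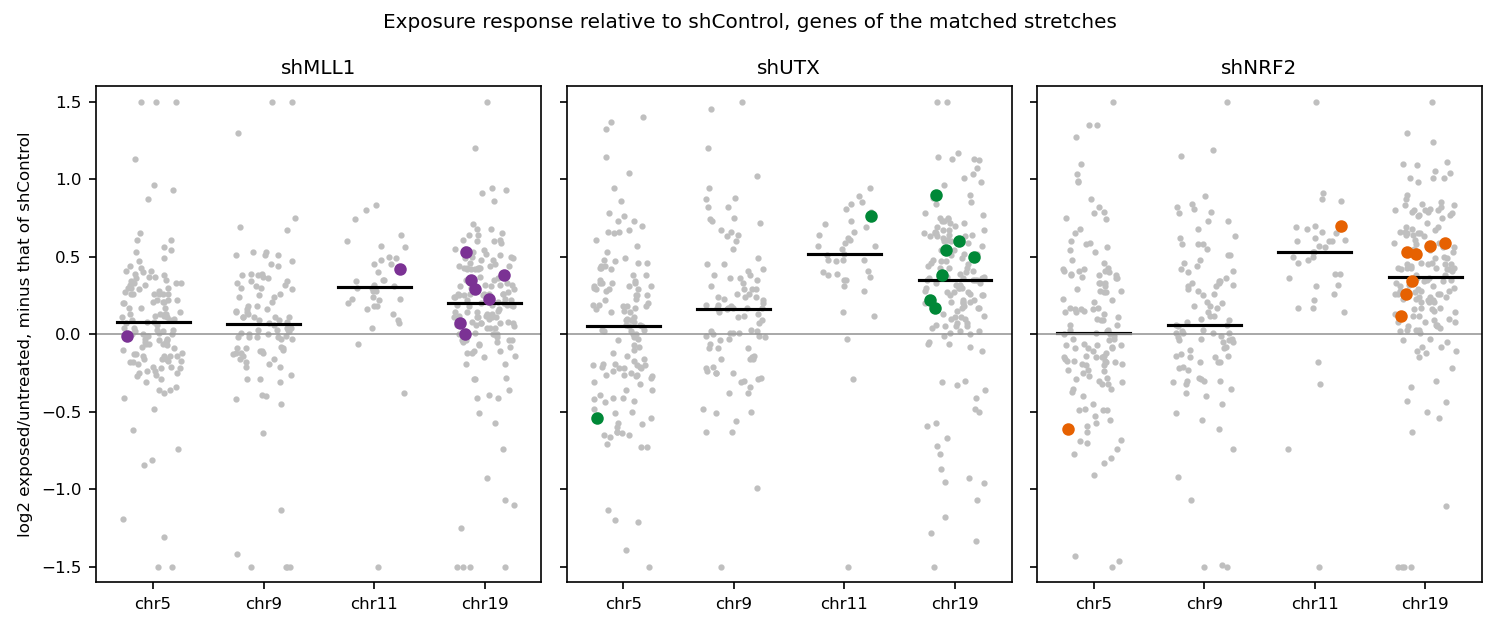
Difference in exposure response from shControl (vertical axis, log2 of exposed over untreated, minus that of shControl cells) for the 433 tested entries of the 4 stretches, by chromosome (horizontal axis), in shMLL1, shUTX and shNRF2 cells. Large coloured points are the 9 genes, black lines are medians, and 16, 7 and 12 entries beyond 1.5 in either direction are drawn at that limit. HRAS lies above the chromosome 11 median and RICTOR, in shUTX and shNRF2 cells, well below that of chromosome 5.

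Other genes of these pathways were read from 6 lists of 163 genes, of which 38 lie in the stretches and 20, beside the 9, passed the filter. In shMLL1 against shControl cells 2 of the 20 rose and 4 fell, in shUTX 3 rose and 3 fell, in shNRF2 1 rose, and neither exposure moved any past the threshold. These are 30%, 30% and 5% of the 20, against 28.2%, 39.7% and 9.47% of the entries in the stretches. Without the untreated shControl library all 6 calls in shMLL1 cells, 4 of the 6 in shUTX cells and the 1 in shNRF2 cells were kept, and CLTA, a clathrin light chain (0.28 in shMLL1, 0.49 in shUTX cells), and TRIO (-0.56) and PTGER4 in shNRF2 cells were called beside them. The median log2 change of the 20 was -0.12, -0.17 and -0.12 in the 3 knockdowns. Among the receptors, PTGER4, the prostaglandin E2 receptor EP4, read 209, 146 and 132 CPM in shMLL1 cells (H2O2, CeO2, untreated), against 46.5, 48.3 and 44.2 CPM in shControl cells, a rise of 1.78 ± 0.12 on the log2 scale (adjusted p = 2.55e-07). PTGER4 lay at 31.8 to 47.9 CPM in shUTX cells and at 57.2 to 71.2 CPM in shNRF2 cells. The shNRF2 libraries were above every shControl library (log2 difference 0.42 ± 0.12, adjusted p = 0.0657; 0.44 without the untreated shControl library, adjusted p = 0.0243) and below every shMLL1 library. Of the kinases, PRKAA1 rose in shMLL1 cells too, by 0.45 ± 0.10 (adjusted p = 0.00636), with every shMLL1 and shUTX library above every shControl library. CSNK1G2, a casein kinase 1 isoform, fell by 0.26 ± 0.09 in shUTX cells (adjusted p = 0.0389), a call lost without the untreated shControl library (-0.17, adjusted p = 0.0781). MATK, a kinase that restrains SRC-family kinases, had 43, 33 and 21 counts in shNRF2 cells, against 8, 7 and 7 counts in shControl cells, a rise of 2.15 ± 0.43 (adjusted p = 0.00903) at a low level.

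TRIO, an exchange factor for RAC1 and RHOA, fell by 0.85 ± 0.12 in shMLL1 cells (adjusted p = 0.000268), with 381, 392 and 303 CPM, against 671, 819 and 471 CPM in shControl cells. TNFAIP8L1, a member of the TNFAIP8 family, fell by 1.45 ± 0.09 in shUTX cells (adjusted p = 7.79e-08), with 43.5, 49.3 and 46.6 CPM, against 109, 132 and 141 CPM in shControl cells. All 3 shUTX libraries of TNFAIP8L1 lay below the lowest of the other 9, at 102 CPM. TLE2, a co-repressor of the Groucho family, fell by 1.08 ± 0.24 in shMLL1 (adjusted p = 0.00754) and 0.81 ± 0.24 in shUTX cells (adjusted p = 0.0206), at 17 to 22 counts in those 6 libraries and 34 to 49 counts in shControl cells. Without the untreated shControl library the TLE2 differences were -0.88 (adjusted p = 0.0296) and -0.61 (adjusted p = 0.102). MIDN, a nuclear protein that delivers clients to the proteasome, rose by 0.31 ± 0.07 in shUTX cells (adjusted p = 0.00499). PRLR, the prolactin receptor, had 0 counts in all 3 shMLL1 libraries, where it was called lower, and 18 to 28 counts in shUTX cells, where it was called higher, against 5 to 12 counts in shControl cells. A library at 0 leaves room for up to 3 counts of its total. DAB2, an endocytic adaptor, had 0 to 3 counts in shMLL1 cells and 13 to 15 in shControl cells and was called lower. In the model of exposure responses, RASSF7, a Ras-association domain protein and neighbour of HRAS, was 0.73 ± 0.13 higher in shUTX cells than in shControl cells (adjusted p = 0.000794) and 0.66 ± 0.12 higher in shNRF2 cells (adjusted p = 0.0012). CLTA was 0.64 and 0.73 higher, and PRKAA1 (-0.41 and -0.40) and TRIO (-0.60 and -0.59) were lower, like RICTOR on chromosome 5. In shUTX cells CSNK1G2 (0.37, adjusted p = 0.0394) and EPS8L2 (0.41, adjusted p = 0.048) were called higher as well. Of the 20 list genes 6 were thus called in shUTX and 4 in shNRF2 cells. These are 30% and 20%, against 23.1% and 27.5% of the entries in the stretches.

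For each gene the 2 most alike were taken among the other entries of the stretches, 338 of any type that averaged at least 5 CPM. The measure was Pearson's r of log2(CPM + 1) over the 12 libraries, which share depth and composition differences, and it serves as a description. HRAS was most like RNH1, the ribonuclease inhibitor (r = 0.971), and SIGIRR, an interleukin 1 receptor family member (0.943), both in its own stretch. STK11 was most like SIRT6, a nuclear deacetylase (0.958), and ABHD17A, a depalmitoylase (0.954), and DAPK3 like ADAT3 (0.91) and CSNK1G2 (0.899). GNA11 was most like RANBP3, a RAN-binding protein (0.967), and TIMM13, a mitochondrial import chaperone (0.927), and GNA15 like RECK (0.951) and FZR1, an activator of the anaphase-promoting complex (0.928). MAP2K2 was most like GRHPR (0.894) and CDKN2A, the locus of p16 (0.893), and MKNK2, the steadiest, had the weakest partners, ONECUT3 (0.75) and GNE (0.717). RICTOR was most like NIPBL, the cohesin loader (0.92), and ICE1 (0.918), both on chromosome 5, and GADD45B like TJP3, a tight junction protein (0.85), and PKP3 (0.799). The median r of each of the 9 with the 338 ran from -0.207 (RICTOR) to 0.262 (MAP2K2). HRAS and RICTOR ran opposite to each other over the 12 libraries, with r = -0.921. RICTOR exons overlap those of OSMR, the oncostatin M receptor on the opposite strand, by 229 bases (1.69% of its exon length), and STK11 exons overlap CBARP by 149 bases, so a few reads of these 2 could be shared, since the sources used here do not give the strand setting of the counting.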

How the data were processed

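Total RNA of 12 HaCaT libraries was prepared with TruSeq kits, per the labels' protocols. The submitters' processing notes name GRCh38 as the build and, as tools, HTSeq 0.11.1, HISAT2 2.2.1, SAMtools 1.12 and Trimmomatic 0.39, whose settings the sources used here do not give. The authors deposited raw counts by Ensembl identifier in a table for H2O2 and one for CeO2, each of which repeats the untreated libraries. The tables differ in 1 cell, of none of the 9 genes, and the H2O2 table supplied the untreated counts.

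Because many names do not match their reads, entries were read by name only in stretches found with a hidden Markov model over a panel of 788 genes that every cell uses. The panel and the rule that every panel gene of a stretch reads at least 30 CPM were set once the data had been seen. An earlier rule, asking for at least 3 panel genes at a median of 150 CPM, had also kept a stretch on chromosome 4. Coordinates, exon lengths and the G and C content of each gene's longest transcript came from GENCODE 29, and promoter windows from RefSeq (GRCh38.p14). Symbols came from a separate list of gene names, and from GENCODE 29 where that list had none.

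Tests were edgeR 4.0.16 quasi-likelihood tests (two-sided) with TMM sizes on the 10800 entries that reached 1 CPM in 3 or more libraries, fitted over all 12 libraries as derivative plus treatment (6 residual degrees of freedom), with Benjamini-Hochberg adjustment over all entries and a threshold of 0.05. The model of exposure responses adds a term for each knockdown under exposure (3 residual degrees of freedom); its comparison against shMLL1 cells and the removal of the G and C trend were added after seeing the data. Standard errors are the log2 change over the square root of the F statistic, and alternatives used DESeq2 1.42.0 and limma 3.58.1. Ratios of 2 libraries carry exact conditional binomial 95% intervals, which cover counting error only. Scripts were tested on simulated data.

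The members and lists were chosen with earlier results of these data known. All 9 genes are named in every comparison. Genes of the pathway lists that lie in the stretches and passed the filter may be named and all are counted, and the 2 genes most alike to each of the 9 are named, among entries averaging at least 5 CPM. Alternatives were other size factors (RLE, upper quartile), other filters (none, 5 CPM), DESeq2, limma-voom, the untreated counts of the CeO2 table, removal of trends against exon length or G and C content (loess), fits of the compared libraries alone, and each library left out in turn.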

Additional observations from a re-analysis of the deposited data

Results flagged for a closer look

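The exposure responses of 6 of the 9 genes differed between a knockdown and shControl cells by the test of the difference itself. The shares called were 14.4% of all entries in shUTX and 16.6% in shNRF2 cells, and 23.1% and 27.5% of those in the stretches. In the chromosome 11 stretch, which holds HRAS, 18 of 38 entries were called higher in shUTX and 19 in shNRF2 cells. In that of chromosome 19, which holds 7 of the 9, 46 of 158 were called higher in shUTX and 49 in shNRF2 cells. There 1 and 2 were called lower. The median difference in shUTX and shNRF2 cells was 0.35 and 0.37 over the chromosome 19 entries, and 0.52 and 0.53 over those of chromosome 11. In shUTX cells the log2 differences were 0.76 for HRAS, 0.60 for MAP2K2, 0.54 for STK11, -0.54 for RICTOR, 0.50 for DAPK3 and 0.90 for GADD45B. In shNRF2 cells they were 0.70 for HRAS, 0.57 for MAP2K2, 0.52 for STK11, -0.61 for RICTOR, 0.59 for DAPK3 and 0.53 for GADD45B. With the G and C trend removed 3 of the 9 were called in shUTX and 1 in shNRF2 cells, and with the length trend removed 2 and 3. Over all 10800 entries DESeq2 called 483 in shUTX and 542 in shNRF2 cells, against 1554 and 1794 with edgeR. All 12 differences use the untreated shControl library, whose rhos with G and C content and exon length across 338 genes were 0.31 and -0.36, against -0.0954 to 0.00208 and 0.147 to 0.225 in the exposed shControl libraries. The model fits each untreated library exactly, so its p-values hold no spread of the untreated libraries. Beside the values with those trends removed, the part of the untreated shControl library in the differences was not tested.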

How the results depend on the processing

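The exposures were compared with the derivative as a block, which pairs the libraries of a derivative, and no pairing by replicate number was made, since each combination has 1 library. Of the 9 genes, the number called in shMLL1 against shControl cells (0) was 2 with no filter, with the length trend removed, with the G and C trend removed and with only the compared libraries, and 0 to 2 with 1 library left out. In shUTX against shControl cells (3) it was 4 with no filter or with the length trend removed, 4 with the G and C trend removed (GNA11, MAP2K2 and MKNK2 higher, GNA15 lower), 1 with only the compared libraries and 1 to 4 with 1 library left out, and in shNRF2 against shControl cells (1) it was 0 with RLE or upper-quartile sizes, a 5 CPM filter, limma-voom, the G and C trend removed or only the compared libraries, and 0 to 1 with 1 left out. For shUTX against shMLL1 (3) it was 5 with the G and C trend removed or only the compared libraries, and 3 to 5 with 1 left out. For shNRF2 against shMLL1 (2) it was 4 with the length trend removed and 1 to 5 with 1 left out. For shNRF2 against shUTX (1) it was 3 with no filter, 2 with a 5 CPM filter or limma-voom, 4 with the G and C trend removed, 5 with only the compared libraries and 0 to 3 with 1 left out. For H2O2 (0) it was 1 with no filter (HRAS, -0.32, adjusted p = 0.00481), and for CeO2 it stayed at 0 throughout. The numbers for the exposure response were 0 to 1 in shMLL1, 5 to 7 in shUTX and 5 to 7 in shNRF2 cells with 1 exposed library left out, 2 and 3 in shUTX and shNRF2 with the length trend removed, and 3 and 1 with the G and C trend removed. Without the untreated shControl library 43 entries were called for H2O2 and 10 for CeO2, against 0 and 2 with it, and none of the 9 among them. The cause of these shifts was not tested. No called value reversed. A library left out leaves its combination empty, and the fit then rests on the other libraries of its derivative and treatment. The numbers of entries called over all entries with 1 library left out were 598 to 2252 for shNRF2 against shMLL1 (1220), 667 to 1941 for shMLL1 against shControl (1320) and 816 to 2111 for the exposure response in shUTX cells (1554). With DESeq2 the exposure response had 483 entries called in shUTX and 542 in shNRF2 cells, against 1554 and 1794 with edgeR. The 9 genes had 285 counts or more in each library, and 1 library per combination cannot separate the spread between libraries from treatment.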
